A study of Mus musculus with 8 samples.

Results

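Hepatocyte growth factor and its receptor were followed as the 2 genes Hgf and Met, matched by symbol among the 24848 genes of each expression table. RNA had been sequenced from the ischemic tibialis anterior, a muscle at the front of the lower leg, of male Leprdb/db mice. This genotype has no functional leptin receptor and is used as a model of obesity with diabetes. A hind limb of every animal had been made ischemic by surgery, and the muscle was taken on day 28. The 4 placebo libraries came from mice fed control chow. The 4 praliciguat libraries came from mice fed chow with 75 ppm of the drug, a content aimed at the peak plasma concentration that 10 mg/kg/day by mouth would give. Feeding began on day -3 and went on for 31 days. Praliciguat stimulates soluble guanylate cyclase, the enzyme that answers nitric oxide by making cGMP. Genotype, sex and surgery were common to both groups, and muscle without ischemia was not analysed here.

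HGF is secreted as an inactive single chain that binds heparan sulphate in the matrix and becomes active when serine proteases cut it. The active form binds MET, a receptor tyrosine kinase, which then docks adaptors such as GRB2 and GAB1 and switches on RAS, PI3 kinase and STAT3 signalling. In skeletal muscle HGF is known as a signal that wakes quiescent satellite cells, the muscle stem cells, and in vessels as a factor that promotes growth of endothelium.

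Met was selected on its higher counts with praliciguat in these same libraries, so its contrast is described here and not tested. Hgf was taken along as the ligand of Met. In RefSeq coordinates of GRCm38.p6, Met lies on chromosome 6 from 17463349 to 17573980 and Hgf on chromosome 5 from 16553495 to 16619439. Reads were assigned to spliced transcripts and added up per gene, with 1 transcript for Met (6652 bases) and 5 for Hgf. A long noncoding RNA gene that has no row in the tables overlaps each of them, Gm52893 in Met and Gm31113 in Hgf. The sources used here do not give the strand setting of the counting, so reads of such a partner may be included if it overlaps exons. Whether it does was not examined, because only the ends of the genes were compared.

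Total expected counts ranged from 21099764 to 31896205 per library, and 13569 genes had enough reads to be tested. All 12 muscle fibre markers had reads in every library, and they summed to 139851 to 189512 CPM (counts scaled to a common library total). That sum is carried by abundant genes such as Myh4, a myosin of fast fibres, and Acta1, the actin of skeletal muscle fibres. DESeq2 called 3 of the 12 lower with praliciguat, the slower, oxidative fibre genes Myh2, Myh7 and Tnnt1, and edgeR called 0. The groups of each were apart, with praliciguat below, as in 2.54% of all tested genes. Myh7, the slow myosin heavy chain, was at 338 ± 165 CPM in placebo and 32.3 ± 21.1 CPM in praliciguat (SD, n = 4), and its edgeR adjusted p was 0.122. The part of fibre type in the Met and Hgf values was not tested. Praliciguat replicate 3 stood apart: its 12 macrophage and monocyte markers summed to 863 CPM, against 84.8 to 295 CPM in the other 7 libraries. No gene passed edgeR's quasi-likelihood test at an adjusted p under 0.05 (0 of 13569, 0% in each direction). At an unadjusted p under 0.05 there were 778, of which 265 were higher (1.95% of tested genes) and 513 lower (3.78%). Without placebo replicate 3, 5 genes passed the adjusted test. DESeq2 called 13 genes higher (0.0931%) and 113 lower (0.809%). Whether every library is a different animal is not stated in the labels. If some are not, part of the spread behind the p-values below is technical.

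The receptor was well covered by reads and the ligand was barely detected. Met had 377, 510, 489 and 484 reads in placebo replicates 1 to 4 and 578, 542, 773 and 646 reads in praliciguat replicates 1 to 4. Hgf had 1, 0, 5 and 4 reads in the placebo libraries and 3, 3, 14 and 7 reads in the praliciguat libraries, 37 in all. A count of 0 still allows up to 3 reads, which is 0.0875 to 0.134 CPM depending on the library, for counting error only. By that measure Hgf was below the limit in placebo replicates 1 and 2 and at it in praliciguat replicates 1 and 2.

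Levels of the 2 genes can be set side by side in TPM, which divide reads by gene length before scaling. The Met level was 4.77 ± 0.184 TPM in placebo and 6.04 ± 0.46 TPM in praliciguat libraries (SD, n = 4). The Hgf level was 0.065 ± 0.0592 TPM and 0.17 ± 0.116 TPM (SD, n = 4). Hgf RNA was thus 1.36% of Met RNA in placebo and 2.81% in praliciguat, taken between the group means. Within single libraries the share was lowest in placebo replicate 2, at 0%, and highest in praliciguat replicate 3, at 5.06%. Of all genes in the tables, 35.4% had a higher placebo TPM than Met and 62% a higher one than Hgf. RNA levels do not measure HGF protein, which the matrix stores and blood can bring from other organs.

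**Figure D1:**
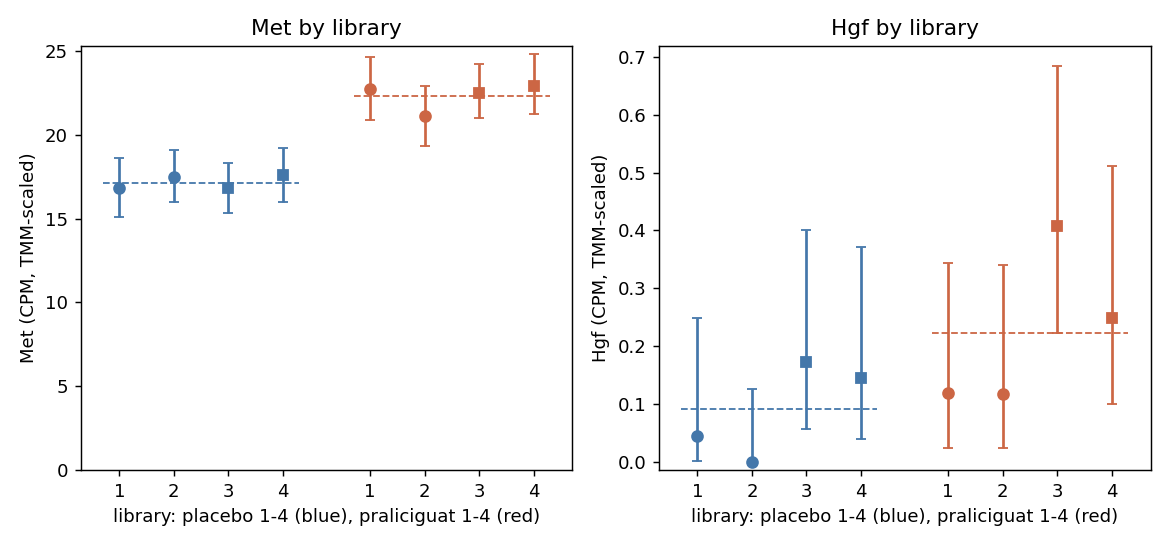
Met and Hgf in each library, in CPM after TMM scaling, for placebo and praliciguat. Bars are exact 95% Poisson intervals, which cover counting error only; dashed lines are group means; circles and squares are libraries of the lower and upper run of title numbers. Met lies at 16.8 to 17.6 CPM in placebo and 21.1 to 22.9 CPM in praliciguat, whereas Hgf stays at or below 0.408 CPM and its groups overlap.

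Met was at 16.8, 17.5, 16.8 and 17.6 CPM in placebo replicates 1 to 4. In praliciguat replicates 1 to 4 it was at 22.7, 21.1, 22.5 and 22.9 CPM. The lowest praliciguat value was above the highest placebo value. Groups were apart in that direction in 179 of the 13569 tested genes (1.32%), and nothing is read from this for Met, because the same contrast chose it. The means were 17.1 ± 0.423 and 22.3 ± 0.839 CPM (SD, n = 4), a fold of 1.3 (log2 fold change 0.38 ± 0.08 SE). With any 1 library left out the log2 fold change of Met lay between 0.36 and 0.41, and it was 0.35 without praliciguat replicates 3 and 4.

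Numbers in the sample titles fall into 2 runs, lower and upper, with 2 libraries of each group in each. What they stand for is not stated. Replicates 3 and 4 of each group are the upper run, so leaving out praliciguat replicates 3 and 4 confounds run with group. Met averaged 17.1 CPM in placebo and 21.9 CPM in praliciguat libraries of the lower run, and 17.2 and 22.7 CPM in those of the upper run. The difference in log2 CPM was 0.34 in the lower run and 0.40 in the upper run. Scaled by total counts alone, Met was at 17.2 to 17.9 CPM in placebo and at 21.2, 19.5, 24.2 and 22.9 CPM in praliciguat replicates 1 to 4. The groups were apart on that scale too, at a fold of 1.26.

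The spread of Met within each group was smaller than Poisson counting predicts at this depth. Its coefficient of variation was 2.46% in placebo, where counting predicts 4.66%, and 3.76% in praliciguat, where it predicts 4%. Among 2710 tested genes within 1.5 times its mean level, the median coefficient of variation was 10.5% in placebo and 12.5% in praliciguat. Of those genes, 16 (0.59%) lay below the counting prediction in both groups, and 3 varied less than Met in both. edgeR, which borrows spread from other genes, gave Met a biological coefficient of variation of 11.4%. With total counts in place of TMM scaling the praliciguat value of Met was 9.38%, above counting error, and the placebo value 1.88%. Spread belongs to the contrast that chose Met, so these values are a description only.

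Hgf was too sparse for the test across genes. The filter asked for about 0.357 CPM in at least 4 libraries, and Hgf reached that level in 1, praliciguat replicate 3. Its levels were 0.0445, 0, 0.172 and 0.145 CPM in placebo replicates 1 to 4. In praliciguat replicates 1 to 4 they were 0.118, 0.117, 0.408 and 0.248 CPM. The groups overlapped: placebo replicates 3 and 4 lay above praliciguat replicates 1 and 2. The means were 0.0903 ± 0.0813 and 0.223 ± 0.138 CPM (SD, n = 4), a difference that did not pass an exact two-sided permutation test (p = 0.171 over 70 groupings, of which 0.0286 is the smallest possible). The coefficient of variation of Hgf was 90.1% in placebo and 62.1% in praliciguat, where counting alone predicts 63.5% and 38.8%.

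Pooled over libraries there were 10 Hgf reads in placebo and 27 in praliciguat. Their ratio after scaling was 2.57, with an exact 95% interval of 1.21 to 5.96 that covers counting error only and ignores the spread between libraries. Of the 27 reads, 51.9% came from praliciguat replicate 3. Without that library 13 praliciguat reads were left, the ratio was 1.77 and the exact permutation p was 0.314. Without praliciguat replicates 3 and 4, a setting chosen after seeing the data, the log2 ratio fell from 1.3 to 0.38 (exact permutation p = 0.8). When edgeR was run without a count filter over 18273 genes, Hgf had a log2 fold change of 1.27 ± 0.80 (SE) and an adjusted p of 0.881.

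Hgf was higher in the upper run of title numbers than in the lower run in both groups. Placebo libraries averaged 0.158 CPM in the upper and 0.0223 CPM in the lower run, and praliciguat libraries 0.328 and 0.117 CPM. The difference between groups was 0.0949 CPM in the lower run and 0.17 CPM in the upper run. Within each run both praliciguat libraries lay above both placebo libraries, so the overlap of the groups is between runs. Permuting within runs gave an exact two-sided p of 0.0556, the smallest that design allows, so it could not reach 0.05. These values rest on 0 to 14 reads per library, and the run was not part of the main test.

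Fibroblasts, their fibro-adipogenic progenitors and macrophages are cells that make HGF in muscle. Praliciguat replicate 3, the library with the most Hgf, was the highest of all 8 for markers of macrophages (863 CPM), of fibro-adipogenic progenitors and fibroblasts (8427 CPM), of adipocytes (2039 CPM) and of other leukocytes (37 CPM). Placebo replicate 3, with the most Hgf of its group, was the highest placebo library for the same 4 lists (295, 4231, 1439 and 24.2 CPM). All 12 macrophage, 15 fibroblast and 7 adipocyte markers had reads in every library, as had 7 of the 10 leukocyte markers. Other placebo libraries did not keep that order: replicate 4, second for Hgf at 0.145 CPM, had the lowest fibroblast (2607 CPM) and adipocyte (517 CPM) sums, while replicate 1, with 1 Hgf read, had 3076 and 723 CPM. Epithelium and mesothelium markers were also highest in replicate 3 of each group (6.35 CPM in placebo and 7.67 CPM in praliciguat). The part of these cells in the Hgf values was not tested. In whole muscle, fewer cells of a type and less RNA per cell cannot be told apart.

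How Met moved with those markers within the praliciguat group differed with the scaling. Over the praliciguat libraries the macrophage sum ran from 84.8 to 863 CPM and the fibroblast sum from 1552 to 8427 CPM, and Met, after TMM scaling, from 21.1 to 22.9 CPM. By total counts Met was at 19.5, 21.2, 22.9 and 24.2 CPM in praliciguat replicates 2, 1, 4 and 3, and in TPM at 5.44, 5.98, 6.24 and 6.52. That is the order of the macrophage sums (84.8, 140, 194 and 863 CPM) and of the fibroblast sums (1552, 2615, 3328 and 8427 CPM). It is also the order of the TMM factors of these libraries (0.9251, 0.935, 0.9972 and 1.076). A gene that is level after TMM scaling would therefore show the same order by total counts. Over the placebo libraries the macrophage and fibroblast sums ran from 112 to 295 CPM and from 2607 to 4231 CPM, and Met from 16.8 to 17.6 CPM. By total counts Met was at 17.9, 17.2, 17.6 and 17.2 CPM in placebo replicates 1 to 4, and in TPM at 4.64, 4.59, 4.86 and 4.98. Neither is the order of the placebo macrophage sums (152, 112, 295 and 138 CPM) or fibroblast sums (3076, 2846, 4231 and 2607 CPM). The adipocyte sum was 517 to 1439 CPM in placebo and 789 to 2039 CPM in praliciguat. The part of these cells in the Met values was not tested.

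**Figure D2:**
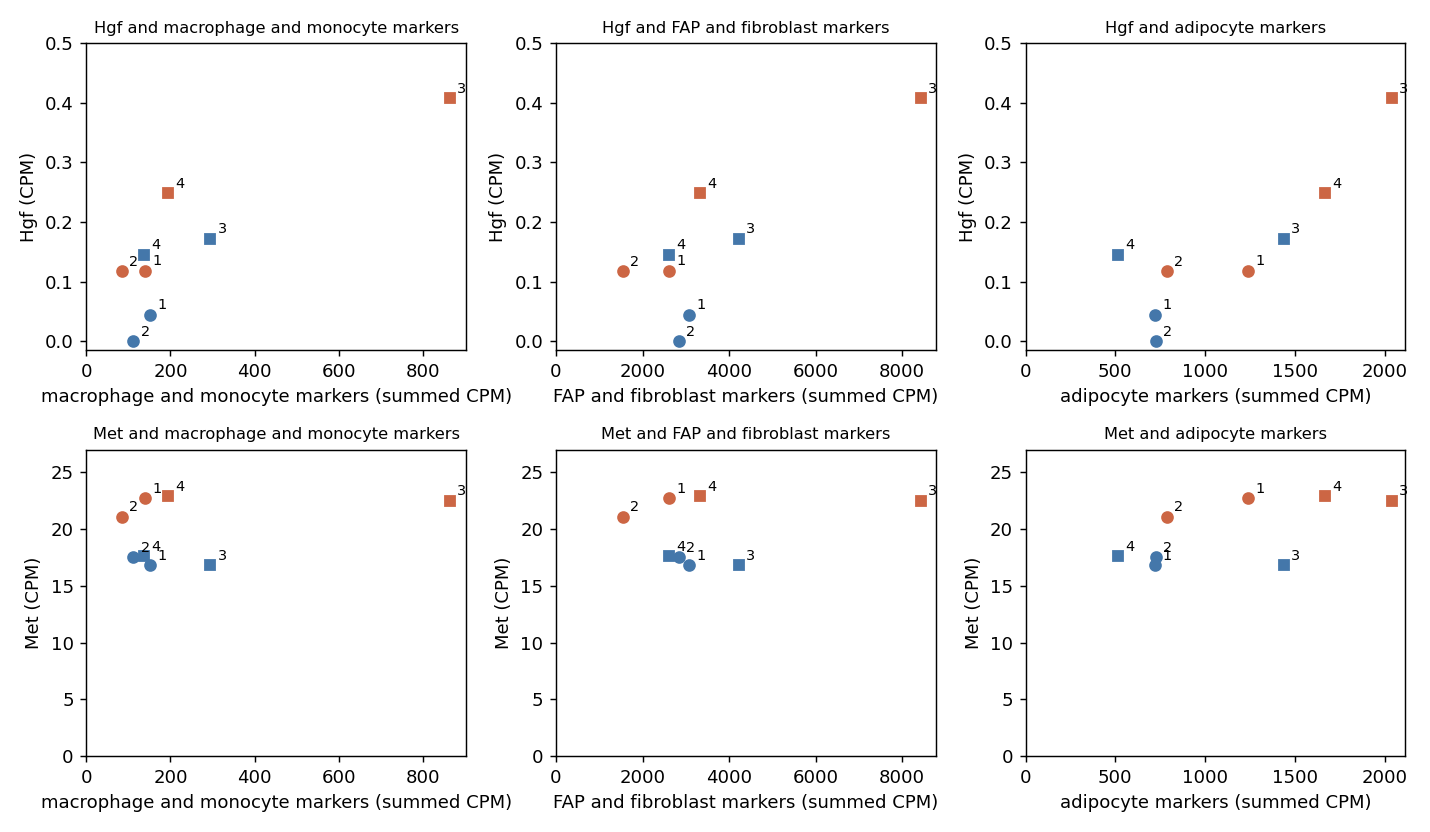
Hgf (top row) and Met (bottom row) in CPM against the summed CPM of macrophage and monocyte, fibro-adipogenic progenitor (FAP) and fibroblast, and adipocyte markers. Each point is a library, numbered by replicate and coloured by group, with squares for the upper run of title numbers. Praliciguat replicate 3 is farthest right and highest for Hgf, while its Met level is 22.5 CPM on this TMM scale, within the range of the other praliciguat libraries, and the highest of all by total counts (24.2 CPM) and in TPM (6.52).

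Satellite cells carry MET on their surface. Their 16 markers summed to 4244 to 4383 CPM in placebo and 3864 to 4707 CPM in praliciguat, but nearly all of that is Des, desmin, which fibres also make. Without Des the other 15 summed to 265 to 319 CPM and 239 to 276 CPM, and fibres share several of these as well, so neither sum measures satellite cells. Pax7, the factor that defines these cells, was at 1.94 ± 0.367 CPM in placebo libraries and 1.74 ± 0.654 CPM in praliciguat libraries (SD, n = 4). Of the 16 markers 15 were tested, 4 above and 11 below 0 (median log2 fold change -0.18). Groups were apart in 1 with praliciguat above and 1 with praliciguat below, against 1.32% and 2.54% of all tested genes. DESeq2 called both, as it called 0.0931% of all genes it tested higher and 0.809% lower, and edgeR called 0. Myod1, which drives myogenic cells, was at 19.9 ± 4.46 and 32.1 ± 5.47 CPM (SD, n = 4; edgeR adjusted p = 0.364). Myh3, the embryonic myosin of newly formed fibres, was at 36.3 ± 14 and 5.46 ± 4.19 CPM (SD, n = 4; edgeR adjusted p = 0.251). Endothelium also bears MET, and its 12 markers summed to 691 to 896 CPM and 495 to 738 CPM. All 12 were tested, 0 above and 12 below 0 (median log2 fold change -0.32), where 44.8% of all tested genes lay below 0. Of the 12, 0 passed edgeR and 0 were called by DESeq2. The unadjusted edgeR p was under 0.05 for 5, all lower, against 3.78% of all tested genes. Groups were apart with praliciguat below in 2, against 2.54% of all tested genes. Smooth muscle and pericyte markers summed to 1144 to 1608 and 970 to 1403 CPM, and Schwann cell markers to 150 to 341 and 95.6 to 202 CPM. The 9 markers of epithelium and mesothelium, where MET is abundant in other organs, summed to 2.47 to 6.35 and 0.958 to 7.67 CPM, and 4 of them had reads in every library. The part of satellite and these other cells in the Met values was likewise not tested.

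Among receptor tyrosine kinases, Met was of middling level. With 37 others it ranked 20 of 38 in placebo by mean TPM and 16 of 38 in praliciguat. Its neighbours in placebo were Mertk, a receptor with which phagocytes clear dead cells, at 5.15 ± 1.08 TPM, and Igf1r, the IGF-1 receptor, at 4.4 ± 0.322 TPM (SD, n = 4). The placebo range of each overlapped the 4.59 to 4.98 TPM of Met. Hgf ranked 32 of 33 growth factors in placebo and 31 of 33 in praliciguat. Its neighbours in placebo were Il6, interleukin 6, at 0.075 ± 0.058 TPM and Nrg1, neuregulin 1, at 0.015 ± 0.0173 TPM (SD, n = 4), and their ranges overlapped that of Hgf.

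**Figure D3:**
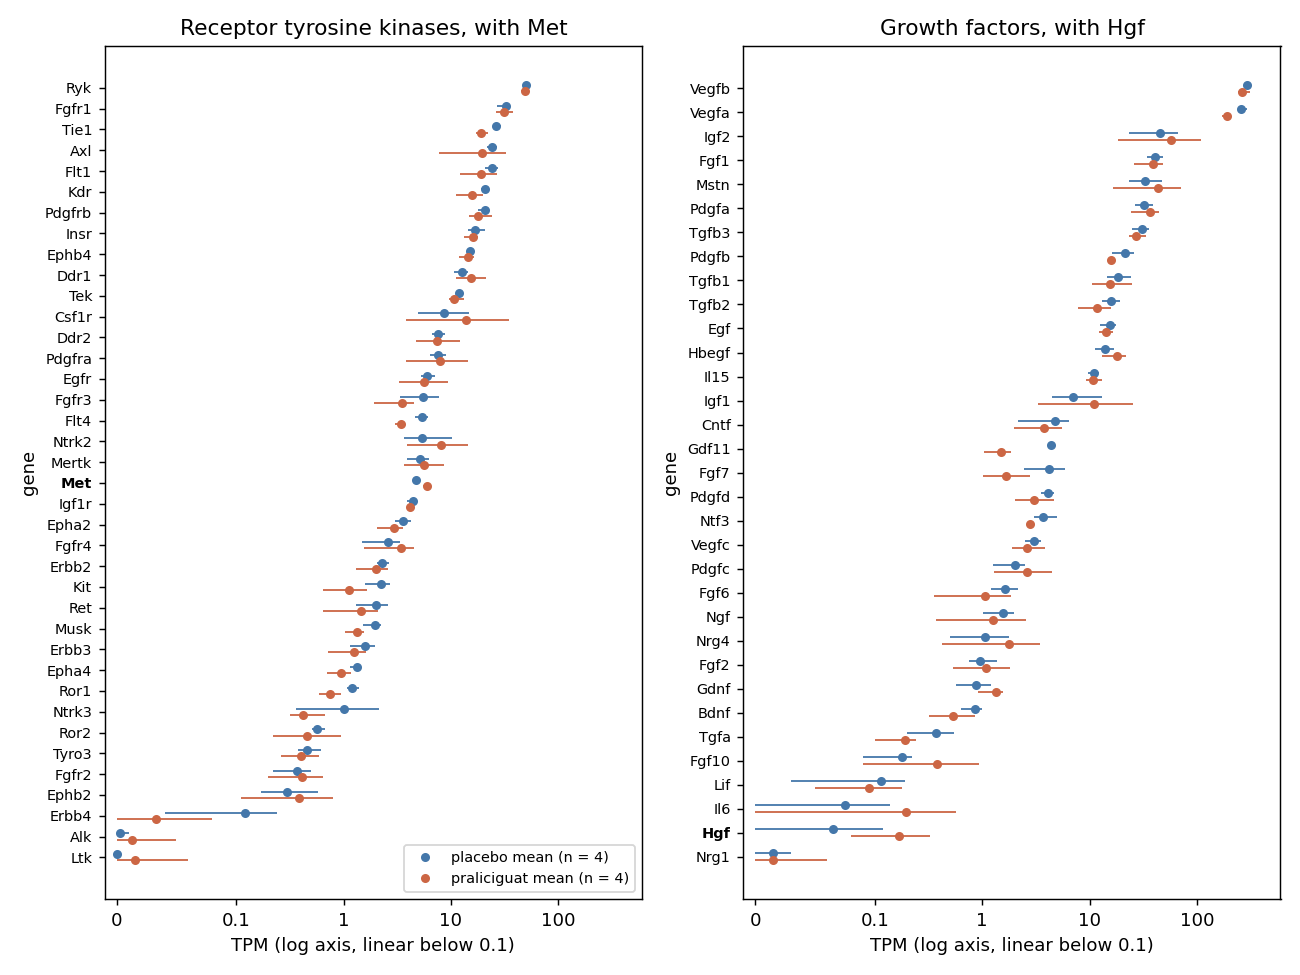
Levels in TPM (log axis, linear below 0.1) of 37 receptor tyrosine kinases with Met and 32 growth factors with Hgf, in order of the placebo mean. Points are group means of 4 libraries, and lines run from the lowest to the highest library. Met lies mid-list with short lines at 4.77 and 6.04 TPM, and Hgf lies second from the bottom.

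Other genes of the pathway are given as mean ± SD in CPM over the 4 placebo libraries, then over the 4 praliciguat libraries. Over all 13569 tested genes the median log2 fold change was 0.02 and 44.8% lay below 0. Of the 20 genes that release, cut or protect HGF, 12 were tested, 6 were above and 6 below 0 (median -0.07), and 0 passed edgeR (0 higher and 1 lower at an unadjusted p under 0.05, 0 by DESeq2). Hgfac, the HGF activator protease, had 11 reads over the 8 libraries and was not tested. Plau, the urokinase that can cut pro-HGF, was at 24.3 ± 2.71 and 24.9 ± 5.73 CPM, and Hpn, the protease hepsin, at 6.83 ± 1.25 and 6.03 ± 0.853 CPM. Spint2, an inhibitor of HGF-cutting proteases, was at 4.02 ± 0.873 and 2.77 ± 0.457 CPM. The groups of Spint2 were apart, with praliciguat below, as in 2.54% of all tested genes, and its edgeR adjusted p was 0.778.

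Of 3 matrix proteases in that list, 2 changed the sign of their log2 fold change without praliciguat replicate 3. Mmp2 was at 78.9 ± 10.9 and 102 ± 98 CPM, and its log2 fold change of 0.37 turned to -0.57 without that library. Mmp14, which activates MMP2, was at 48 ± 9.19 and 64 ± 59.4 CPM, and its 0.42 turned to -0.48. Mmp9 was at 0.639 ± 0.422 and 1.17 ± 0.828 CPM, and its log2 fold change of 0.87 ± 0.57 (SE, edgeR adjusted p = 0.984) went to 0.24 without that library.

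Of 25 partners of HGF and MET in matrix and membrane, 24 were tested, 18 had a log2 fold change below 0 (median -0.16), and 0 passed edgeR (0 higher and 3 lower at an unadjusted p under 0.05). DESeq2 called 1 lower, Agrn, the heparan sulphate proteoglycan agrin, which was picked out after its value was seen. Agrn was at 31.7 ± 3.39 and 23.5 ± 1.13 CPM (edgeR adjusted p = 0.291). Its groups were apart, with praliciguat below, as in 2.54% of all tested genes, and DESeq2 called 0.809% of all genes it tested lower. Cd44, a co-receptor of MET, was at 16.4 ± 3.46 and 16.2 ± 12.3 CPM, and Sdc4, a syndecan of satellite cells, at 57.5 ± 15.7 and 50.7 ± 8.56 CPM. Of the pair most closely related to HGF and MET, the ligand Mst1 had 0 reads in all 8 libraries and the receptor Mst1r was at 2.15 ± 0.277 and 2.1 ± 1.04 CPM.

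All 34 adaptors and kinases below MET were tested, and their log2 fold changes covered the narrowest range of the 8 lists. Of these, 25 were above 0 (73.5%, where 55.2% of all tested genes were; median 0.05), and 0 passed edgeR, reached an unadjusted p under 0.05 or were called by DESeq2. Grb2 was at 70.2 ± 4.58 and 72.7 ± 6.18 CPM and Gab1, the main docking protein of MET, at 31.7 ± 1.67 and 34.6 ± 3.8 CPM. Pik3cb, a PI3 kinase subunit named after its values were seen, was at 11.7 ± 2.08 and 13.7 ± 0.418 CPM. It was the only member with groups apart, with praliciguat above, as in 1.32% of all tested genes.

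Of 28 genes listed as negative regulators of MET, 26 were tested, 12 above and 14 below 0 (median -0.01). They need not all act on MET in the same direction. Among them 0 passed edgeR (0 higher and 1 lower at an unadjusted p under 0.05, 0 by DESeq2). The 1 lower was Spry4, also the only member with groups apart, with praliciguat below, as in 2.54% of all tested genes. Spry4, Spry2 and Dusp6 are also in the list of response genes given next, so these lists are not independent. Cbl, the ubiquitin ligase that removes MET from the surface, was at 0.677 ± 0.176 and 0.787 ± 0.356 CPM. Adam10, a protease that sheds the MET ectodomain, was at 33.6 ± 1.61 and 29.4 ± 4.7 CPM.

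Of 26 genes known to respond to MET and other growth factor signals, 24 were tested, 11 above and 13 below 0 (median -0.06), and 0 passed edgeR (1 higher and 3 lower at an unadjusted p under 0.05, 0 by DESeq2). Dusp6 and Spry2, feedback inhibitors of this signal, were at 21.3 ± 4.31 and 17.5 ± 5.7 CPM and at 12.2 ± 0.928 and 13.5 ± 1.84 CPM. Groups were apart, with praliciguat below, in 2 of the 24 tested members, against 2.54% of all tested genes. Both members were named after their values were seen. These were Spry4, a relative of Spry2, at 19.4 ± 3.23 and 14.5 ± 1.53 CPM, and Bcl2l1, the survival factor BCL-XL, at 52.6 ± 4.81 and 39.6 ± 5.79 CPM.

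Of 23 transcription factors and cytokines known to act on Hgf or Met, 18 were tested, 7 above and 11 below 0 (median -0.05), and 0 passed edgeR (1 higher and 0 lower at an unadjusted p under 0.05, 0 by DESeq2). Sp1 and Ets1, which bind the Met promoter, were at 29.9 ± 2.08 and 28.1 ± 2.89 CPM and at 30.8 ± 3.52 and 27.1 ± 1.63 CPM. Hif1a, through which low oxygen raises Met, was at 25.2 ± 5.49 and 26.9 ± 5.79 CPM.

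Of the 37 other receptor tyrosine kinases set beside Met, 35 were tested, 26 had a log2 fold change below 0 (median -0.17), and 0 passed edgeR (0 higher and 5 lower at an unadjusted p under 0.05). Groups were apart with praliciguat above in 0 of them, against 1.32% of all tested genes. With praliciguat below they were apart in 3 (Flt4, Tie1 and Ror1), against 2.54% of all tested genes. At a share of 1.32%, 0 among 35 genes does not set Met apart. DESeq2 called Flt4 lower, as it did 0.809% of all genes it tested. Of the 32 growth factors set beside Hgf, 28 were tested, 19 were below 0 (median -0.17), and 0 passed edgeR (2 higher and 4 lower at an unadjusted p under 0.05). Groups were apart with praliciguat below in 3 of them (Vegfa, Gdf11 and Ntf3), against 2.54% of all tested genes, and with praliciguat above in 0. DESeq2 called Gdf11 lower. Gdf11, a relative of myostatin, was at 13.7 ± 0.941 and 4.84 ± 1.12 CPM (edgeR adjusted p = 0.0776). Apart from Vegfa, these genes were named after their values were seen.

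**Figure D4:**
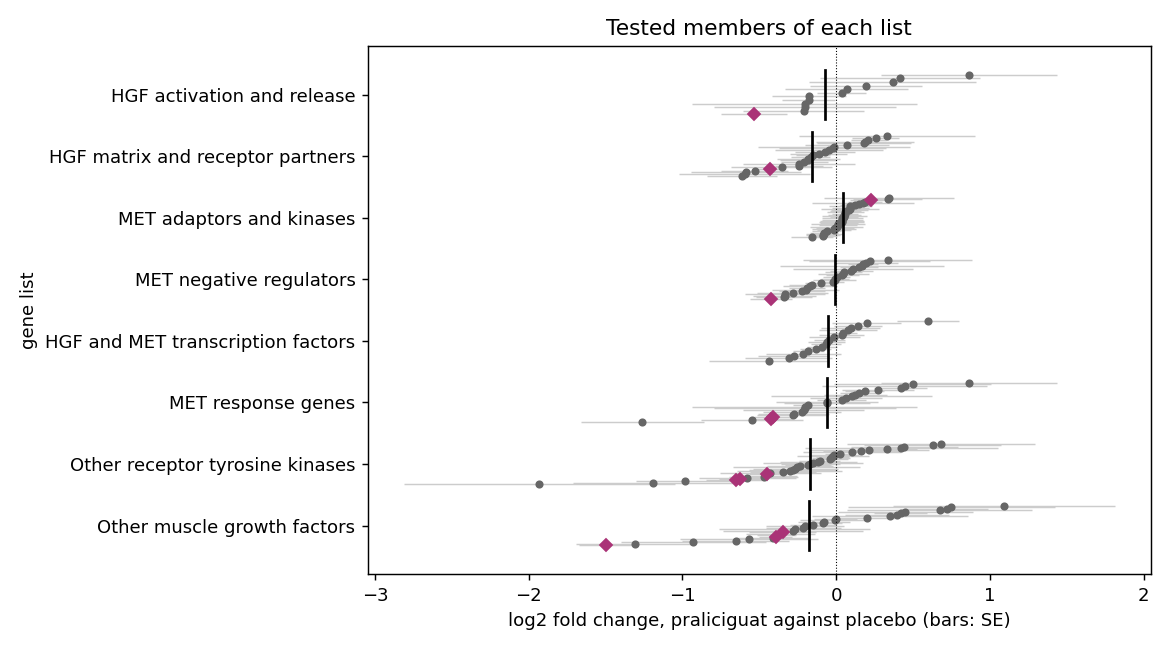
Log2 fold change of praliciguat against placebo for each tested member of the 8 lists, ordered within its list, with SE bars. Black strokes are list medians, and diamonds are genes whose groups do not overlap. No member of any list passed edgeR over all genes, and the medians lie between -0.17 and 0.05.

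Genes were ranked by how closely their log2 CPM followed Met over the 8 libraries after group means were taken out. Among 11953 genes the closest were Ctnnbl1, a splicing-associated protein (Pearson r = 0.98), Sdf4, a calcium-binding protein of the Golgi (r = 0.933), and Tm7sf2, a sterol reductase (r = 0.916). With group means left in, r with Met was 0.901, 0.898 and 0.553. These values describe the closest of many genes and carry no test. All 8 points share the library scaling, and the spread of Met they follow was below counting error. Hgf had too few reads for such a ranking.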

How the data were processed

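RNA sequencing tables of 8 libraries of ischemic mouse muscle were analysed, 4 per group, with groups taken from the labels and replicates numbered in accession order. Tri Reagent served for extraction and the library kit was a stranded kit for mRNA, per the labels' protocols. Trimming with Trimmomatic, STAR 2.5.3a, RSEM 1.2.28, FastQC and mm10 appear in the submitters' processing notes. The authors deposited RSEM expected counts per gene, of which 0.765% to 0.93% per library were not whole (tolerance 0.001), and TPM values, per the file headers. Deposited effective lengths served for 1 alternative, and FPKM values were not used here.

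Expected counts were rounded and fitted in R 4.3.3 with edgeR 4.0.16: filterByExpr (minimum count 10), TMM scaling, and the robust quasi-likelihood F test with Benjamini-Hochberg adjustment at 0.05. Counts scaled by TMM libraries are given as CPM, and log2 CPM used a pseudocount of 0.5. DESeq2 1.42.0, limma 3.58.1 with voom, other scalings and filters, log2(TPM + 1) and log2(TPM + 0.1), the run of title numbers as a block, and each library left out were alternatives. The edgeR script was tested on simulated data. Hgf was to be tested by edgeR but did not pass its filter, so an exact permutation test over libraries was used. Libraries of the same group differed by a chi-square of 21.9 to 136 per degree of freedom over 13351 genes, so no pair agreed within sampling noise. Depth was 21099764 to 31896205 counts.

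The members and the gene lists (8 of pathway and comparison genes, 10 of cell markers) were chosen with earlier results of these data known. Some genes are shared between lists. Genes to be named were Hgf, Met, a roster of 45 list members set whatever their values, list members past the test, and the 3 genes most like Met. Agrn, Pik3cb, Spry4, Bcl2l1, Flt4, Tie1, Ror1, Gdf11, Ntf3, Mertk, Il6, Nrg1, Pax7, Myod1, Myh3, Myh2, Myh7, Tnnt1, Myh4, Acta1 and Des were added after their values were seen.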

Additional observations from a re-analysis of the deposited data

Results flagged for a closer look

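Among the named genes, 92 groups of 4 libraries were checked for a library far from the other 3 by Dixon's criterion, and 5 were flagged, where chance alone flags about 5%. In praliciguat replicate 3, Mmp2 was at 247 CPM against 34.3 to 67.8 CPM in the other praliciguat libraries, Mmp14 at 153 CPM against 25.5 to 41.5 CPM, and Nrp1 at 121 CPM against 85.3 to 90.2 CPM. In placebo replicate 3, Igf1 was at 48.0 CPM against 18.0 to 21.5 CPM in the other placebo libraries, and Dusp6 at 27.7 CPM against 18.6 to 20.1 CPM. These are the libraries with the highest macrophage and fibroblast marker sums of their groups. With about as many flags as chance alone gives, nothing is read from this. Neither Hgf nor Met was flagged in either group.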

How the results depend on the processing

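The log2 fold change of Met kept its direction under all 20 alternatives. It moved from 0.38 to 0.29 with limma on log2(TPM + 1), a scale that shrinks low genes. With log2(TPM + 0.1), which shrinks them less, it was 0.33, and with 1 library left out 0.36 to 0.41. Its coefficient of variation in praliciguat went from 3.76% to 9.38% with total counts, chosen after seeing the data. The Hgf difference kept its direction under all 17 alternatives run. The log2 ratio of the group means was 0.83 to 1.82 with 1 library left out (exact permutation p from 0.143 to 0.314). Permuting within runs of title numbers gave an exact p of 0.0556, the smallest that design allows. That alternative therefore could not pass the threshold and counts neither way. A voom fit and the filter of 1 CPM in 4 libraries left Hgf out, and robust dispersion does not enter the permutation test. The Hgf level as a share of Met was 0.985% to 1.8% in placebo and 1.98% to 3.3% in praliciguat with 1 library left out. The count of called genes was 0 with edgeR, 126 with DESeq2, 2 with limma-voom and 3 with the run as a block. With 1 library left out it was 0 to 5. Without praliciguat replicates 3 and 4, chosen after seeing the data, it was 85, but that setting confounds run with group. DESeq2 called 1 member each among HGF matrix and receptor partners, other receptor tyrosine kinases and other muscle growth factors, and the counts of the other 5 pathway lists stayed at 0 under the alternatives run for them. Among the marker lists DESeq2 called Myod1 higher and Myh3, Myh2, Myh7 and Tnnt1 lower; no other alternative was run for those lists. The cause was not tested. No paired analysis was possible because the labels give no replicate numbers that the groups share.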

Other observations

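The length of Hgf in the deposited tables, where it has 5 transcripts, was 2645 bases in 3 libraries and 2286 to 2810 bases in the others, while Met, with 1 transcript, stayed at 6652 bases. Hgf had 0 to 14 reads per library, so its TPM values carry this variation in length on top of counting error.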
